A study of Mus musculus with 12 samples.

Results

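The collagen genes other than those of cartilage were followed in mouse femur RNA. They were all gene symbols of the form Col, number, a, number in either deposited table, without Col2a1, Col9a1, Col9a2, Col9a3, Col10a1, Col11a1 and Col11a2. The rule found 35 genes of 19510 symbols: 8 fibrillar, 13 network, 6 FACIT and 4 membrane collagens, and 4 outside these classes. Col6a3, Col21a1 and Col26a1 were not analysed here.

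Collagens are secreted or membrane proteins whose chains wind into a triple helix. Fibrillar collagens form the cross-striated fibrils that bone mineral is laid down in, and type I, built from the chains of Col1a1 and Col1a2, makes up most of the organic matrix of bone. Network collagens form sheets such as the type IV mesh of basement membranes and the beaded filaments of type VI, FACITs are collagens with interrupted helices that sit on fibrils or at tissue junctions, and membrane collagens span the cell membrane and can be shed from it.

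The RNA came from the diaphysis (shaft) and metaphysis (the flared end) of femurs of 5-week-old male mice of mixed background, either wild type (WT) or Dlx3Oc-cKO (cKO). Dlx3 encodes a homeodomain transcription factor of bone-forming cells, and in the cKO line it is deleted by a Cre recombinase driven by the osteocalcin promoter, which is active in mature bone-forming cells. The labels do not say whether the WT animals carried Cre or floxed alleles, and the metaphysis titles hold an unexplained GP. Each of the 4 groups (diaphysis WT, diaphysis cKO, metaphysis WT, metaphysis cKO) held 3 libraries, 12 in all, and the titles carry no pairing. Whether each library is 1 animal is not stated, and p-values therefore reflect only how far these libraries spread, some of which may be technical.

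The unit is RPKM, reads scaled to transcript length and library size, summed over the transcripts of a gene. Steps between low RPKM values gave 24.55 to 34.7 M reads (M for mega) per metaphysis library and 18.45 to 54.05 M per diaphysis library. Dlx3 measured 7.97 ± 4.93 RPKM in diaphysis WT and 1.16 ± 0.39 in diaphysis cKO, and 9.11 ± 0.86 in metaphysis WT and 2.67 ± 0.64 in metaphysis cKO (SD, n = 3 each). For the collagens 1 library stood apart. In diaphysis WT replicate 1 the 35 collagens made up 0.771% of the summed RPKM. They made up 4.01% and 6.19% in the other diaphysis WT libraries and 2.28% to 3.17% in diaphysis cKO. Diaphysis WT replicate 1 also had the highest globin share (32.6%, against 15.1% to 26.5% in the other diaphysis libraries). It had the lowest summed RPKM of 11 osteoblast markers (1506, against 2886 to 7574) and of 11 endothelial markers (122, against 170 to 188). Whole tissue was sequenced, so fewer cells of a type and less RNA per cell cannot be told apart.

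Single values ran from 0.00334 to 11230 RPKM. In the WT mean, 2 of 35 reached 1000 RPKM in either region, and 17 reached 10 RPKM in each region. Type I stood above every other collagen. Col1a1 (chromosome 11, 94797538 to 94814356, plus strand, mm9), the major type I chain, measured 1801, 8279 and 11230 RPKM in diaphysis WT and 7349, 6384 and 8543 in metaphysis WT. Col1a2 (chromosome 6, 4454814 to 4491543), the partner chain, measured 1701, 6723 and 10014 RPKM in diaphysis WT and 6056, 5019 and 6808 in metaphysis WT. Together they took 88.2% to 94.6% of the summed RPKM of the 35 collagens in every library.

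Next in both regions came Col3a1, the chain of type III collagen of soft and vascular tissue, and Col5a2, a chain of the type V collagen that starts fibrils. Col3a1 measured 85.2, 818 and 1143 RPKM in diaphysis WT and 176, 278 and 148 in metaphysis WT. Col5a2 measured 63.4, 285 and 438 RPKM in diaphysis WT and 160, 158 and 214 in metaphysis WT. The Col3a1 and Col5a2 values overlapped in both regions, so their order was not separated by the spread, whereas Col1a2 did not overlap Col3a1 in either region. In diaphysis WT no other neighbours in the order of levels were separated among the first 16 genes. In metaphysis WT, Col5a2 stood above Col6a1, and Col5a1, Col4a1, Col4a2 and Col16a1 each stood above the next gene without overlap. Levels in the 2 regions come from tables made separately and are set side by side without a test.

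The network class was led by Col6a1 and Col6a2, chains of the beaded filaments around cells, at 105 ± 68.9 and 97.1 ± 63.7 RPKM in diaphysis WT and 80.6 ± 14.6 and 77.1 ± 9.35 in metaphysis WT (SD, n = 3). Of the FACITs, Col12a1, found on fibrils of dense connective tissue, was highest in diaphysis WT (78.4 ± 63.1 RPKM). Col22a1, known from tissue junctions such as that of muscle and tendon, was highest in metaphysis WT (41.9 ± 8.36 RPKM). Their metaphysis WT values overlapped. Of the membrane class only Col13a1 and Col25a1 were above 1 RPKM in most libraries. The kidney and lung basement membrane chains Col4a3 and Col4a4, the skin hemidesmosome collagen Col17a1 and 8 others (Col4a5, Col4a6, Col6a4, Col6a6, Col19a1, Col23a1, Col7a1 and Col28a1) stayed between 0.00334 and 0.777 RPKM in all 12 libraries.

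**Figure D1:**
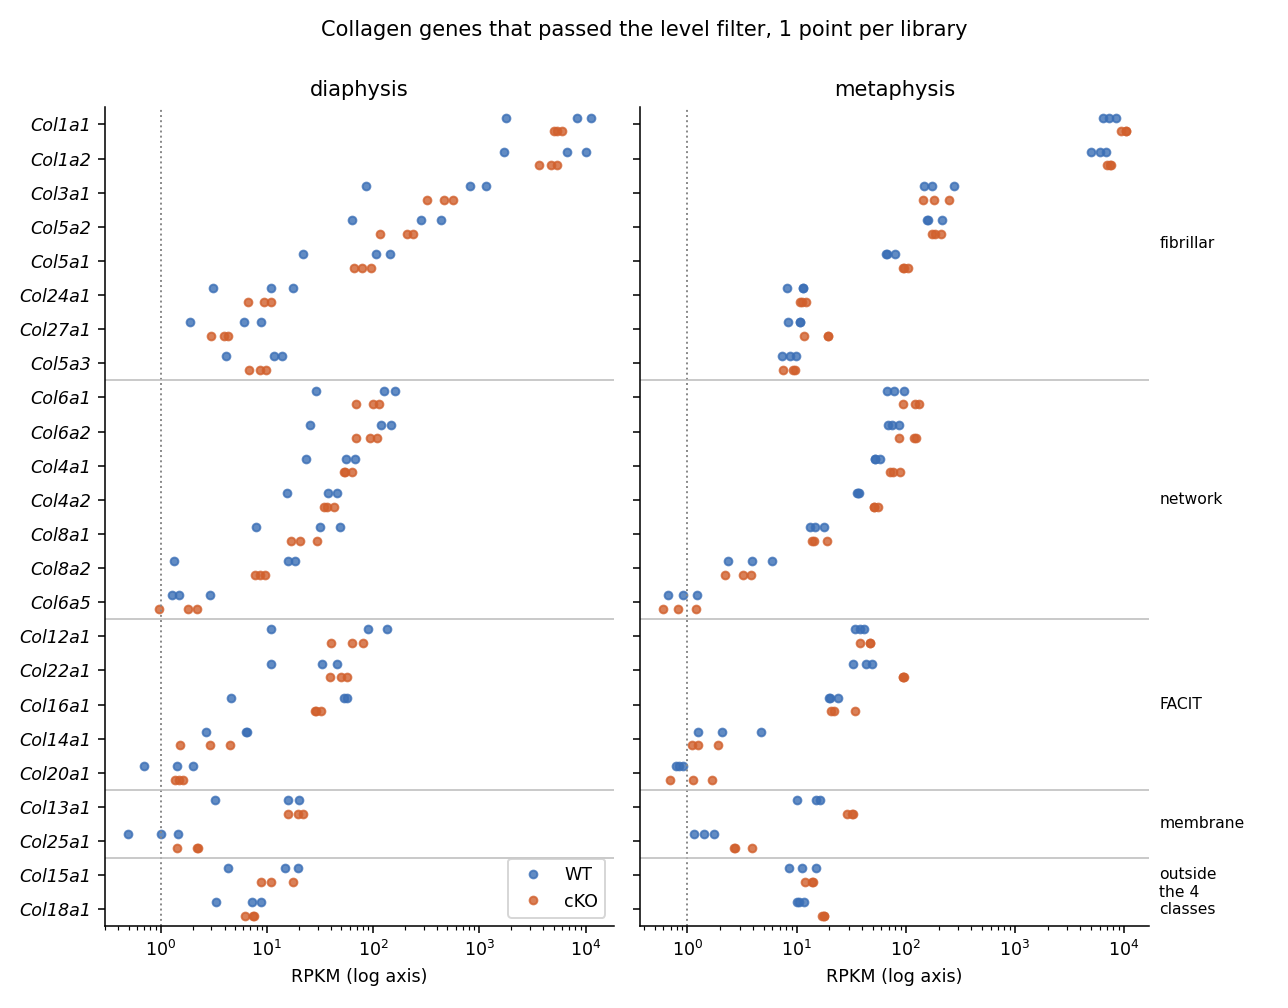
RPKM of the 24 collagens that reached 1 RPKM in 3 libraries of a region, by class, on a log axis, with 1 point per library (blue, WT; orange, cKO) and a dotted line at 1 RPKM. In the diaphysis 1 WT library lies far to the left for nearly all genes, and in the metaphysis the cKO points of Col13a1, Col22a1 and Col25a1 lie to the right of all WT points.

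What loss of Dlx3 does to these genes in the metaphysis was tested with limma on log2(RPKM + 0.1), a scale that understates the change of low genes. With at least 1 RPKM in 3 libraries required, 22 of the 35 were tested among 12641 genes. In cKO 7 of 22 rose and 0 fell at an adjusted p of 0.05, where 7.51% of all tested genes rose and 3.89% fell. The 7 were the FACIT gene Col22a1, the membrane genes Col13a1 and Col25a1, the basement membrane genes Col4a1, Col4a2 and Col18a1, and the fibrillar gene Col5a1. The median log2 fold change was 0.38 over the 22 and -0.04 over all tested genes. The 3 cKO values lay above the 3 WT values in 10 of 22 (18.7% of all tested genes did so) and below them in 0 (18.4%). With the spread estimated from all 12 libraries 0 of the 22 passed (8 genes in all), and without cKO replicate 3 Col22a1 alone did (105 genes in all).

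Both membrane collagens that were tested rose, beside 7.51% of all tested genes. Col13a1 (chromosome 10, 61300984 to 61441856, minus strand), whose product sits at cell adhesion sites and neuromuscular junctions, measured 16.4, 10.1 and 15.2 RPKM in metaphysis WT and 33.0, 28.8 and 32.4 in cKO. The lowest cKO library exceeded the highest WT library by more than the range within either group. Its log2 fold change was 1.20 ± 0.18 (SE; limma, adjusted p = 0.0144), a 2.30-fold higher level. Col25a1 (chromosome 3, 129883809 to 130302795, plus strand), whose product is needed for motor nerves to reach muscle and is found in amyloid plaques, measured 1.73, 1.14 and 1.41 RPKM in WT and 3.87, 2.73 and 2.66 in cKO. All cKO libraries were again above all WT libraries, at a low level (1.06 ± 0.22 SE; limma, adjusted p = 0.0275). Its call was lost without any 1 of 5 of the 6 libraries (limma, adjusted p = 0.0395 to 0.0860 over the 6).

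The 250 bases before the RefSeq start of these 2 genes are shown with those of Col1a2 and Col3a1, abundant fibrillar genes that did not pass in either region. The starts of genes that passed in the metaphysis can so be read beside those of genes that did not pass. Col1a2 is not a gene without any rise, since its metaphysis cKO values all lay above its WT values. RefSeq promoter entries (build GRCm38.p6, not the build of the RPKM tables) existed for 29 of the 35, and not for Col1a1, Col4a3, Col5a2, Col12a1, Col14a1 or Col22a1. Capitals mark matches, on either strand, to TATAAA (the TATA box core), CCAAT (the CCAAT box), GGGCGG (the GC box, which reads CCGCCC on the other strand) and TAATT (a core bound by many homeodomain proteins). None of these motifs contains another.
Col13a1, chr10:61979109-61979358, minus strand: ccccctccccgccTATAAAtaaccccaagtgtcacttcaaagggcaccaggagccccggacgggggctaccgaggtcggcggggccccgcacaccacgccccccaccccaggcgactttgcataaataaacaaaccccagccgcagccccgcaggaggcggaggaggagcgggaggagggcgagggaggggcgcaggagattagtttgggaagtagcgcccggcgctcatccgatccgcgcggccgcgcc
Col25a1, chr3:130180595-130180844, plus strand: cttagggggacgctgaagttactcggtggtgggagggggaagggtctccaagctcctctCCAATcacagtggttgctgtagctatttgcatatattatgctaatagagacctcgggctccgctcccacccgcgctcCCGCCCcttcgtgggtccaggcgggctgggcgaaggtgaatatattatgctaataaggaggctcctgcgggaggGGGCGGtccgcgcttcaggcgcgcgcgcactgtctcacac
Col1a2, chr6:4505368-4505617, plus strand: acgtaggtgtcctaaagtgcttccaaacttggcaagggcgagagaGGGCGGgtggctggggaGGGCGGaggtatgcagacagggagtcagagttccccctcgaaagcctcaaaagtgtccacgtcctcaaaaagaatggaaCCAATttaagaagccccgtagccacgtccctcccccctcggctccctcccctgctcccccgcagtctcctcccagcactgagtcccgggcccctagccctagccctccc
Col3a1, chr1:45311288-45311537, plus strand: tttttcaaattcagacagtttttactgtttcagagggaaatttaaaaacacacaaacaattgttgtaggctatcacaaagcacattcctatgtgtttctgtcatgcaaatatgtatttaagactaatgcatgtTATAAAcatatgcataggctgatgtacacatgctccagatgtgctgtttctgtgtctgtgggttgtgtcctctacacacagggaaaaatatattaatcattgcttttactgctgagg
TATAAA occurred in 12.4% of all 32851 promoters of that length, CCAAT in 33.8%, GGGCGG in 32.7% and TAATT in 25.0%. Of the 29 collagen genes with an entry, 3 held TATAAA, 11 CCAAT, 18 GGGCGG and 2 TAATT (Col17a1 and Col28a1). Col13a1 held TATAAA, beginning 237 bases before the start, and Col3a1 held it 117 bases before. Col25a1 and Col1a2 each held CCAAT once and GGGCGG in 2 places, and none of the 4 windows shown held TAATT. A match is a description of letters and not a binding site, and the lack of one says only that the letters are not in this window. The GC content was 68.8% for Col13a1, 60.4% for Col25a1, 62.0% for Col1a2 and 35.2% for Col3a1, beside a median of 52.4% over all promoters.

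Of the FACITs, 1 of 4 tested rose and 0 fell, beside 7.51% and 3.89% of all tested genes. Col22a1 (chromosome 15, 71626225 to 71864657, minus strand) measured 43.1, 33.0 and 49.6 RPKM in metaphysis WT and 96.8, 95.1 and 95.2 in cKO. The cKO libraries lay close together and all were far above the highest WT library. The log2 fold change of 1.21 ± 0.15 (SE; limma, adjusted p = 0.0103) was the largest among the 22 genes, and Col22a1 alone kept its call with each of the 6 libraries left out in turn (adjusted p up to 0.0498). Col12a1, at 38.2 ± 3.73 RPKM in WT and 43.8 ± 5.29 in cKO, had a log2 fold change of 0.20 ± 0.12 (limma, adjusted p = 0.317). Col14a1, another fibril-associated collagen of dense connective tissue, was the gene with the lowest fold change and did not pass (-0.70 ± 0.45; adjusted p = 0.334). It measured 2.06, 4.67 and 1.25 RPKM in WT and 1.24, 1.90 and 1.11 in cKO, with overlap.

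Of the network collagens, 2 of 6 tested rose, both of type IV, beside 7.51% of all tested genes. Col4a1 and Col4a2, which encode the ubiquitous basement membrane chains, lie head to head on chromosome 8 (11198423 to 11312826, minus strand, and 11312805 to 11449287, plus strand). Their annotated ends overlap by 22 bases, where reads without strand cannot be assigned. Col4a1 measured 52.8, 52.1 and 58.7 RPKM in metaphysis WT and 88.6, 72.1 and 76.5 in cKO, and rose by 0.53 ± 0.10 on the log2 scale (limma, adjusted p = 0.0241). Col4a2 measured 36.0, 36.2 and 37.2 RPKM in WT and 56.3, 51.5 and 51.1 in cKO, and rose by 0.54 ± 0.08 (limma, adjusted p = 0.0136). In both genes the cKO libraries were all above the WT libraries. Omitting WT replicate 1, WT replicate 2 or cKO replicate 3 ended both calls (adjusted p up to 0.0850 for Col4a1 and 0.0547 for Col4a2).

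Of the type VI genes, Col6a1 and Col6a2, near each other on chromosome 10, were tested in the metaphysis and did not pass. Col6a1 measured 77.9, 96.3 and 67.6 RPKM in metaphysis WT and 94.4, 121 and 133 in cKO (log2 fold change 0.53 ± 0.17; limma, adjusted p = 0.0866). Col6a2 measured 74.5, 87.4 and 69.2 RPKM in WT and 86.8, 118 and 125 in cKO (0.50 ± 0.16; adjusted p = 0.0816). In each, 1 cKO library lay within the WT range. Col8a1 and Col8a2, the hexagonal-lattice collagens of vessels and cornea, had overlapping values and adjusted p of 0.880 and 0.556.

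Col18a1 (chromosome 10, 76514923 to 76629293), the basement membrane multiplexin from which endostatin is cut, rose. It measured 10.5, 10.2 and 11.8 RPKM in metaphysis WT and 17.7, 17.8 and 17.0 in cKO, groups that were tight and well apart (log2 fold change 0.69 ± 0.09 SE; limma, adjusted p = 0.0115). Its relative Col15a1, also of basement membrane zones, did not pass (0.24 ± 0.20; adjusted p = 0.451). Without cKO replicate 3 the adjusted p of Col18a1 was 0.0507 and that of Col13a1 0.0559.

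Of the fibrillar genes, 1 of 8 tested rose, beside 7.51% of all tested genes. Col5a1 (chromosome 2, 27741945 to 27895034), the main chain of type V, measured 65.8, 67.9 and 79.6 RPKM in metaphysis WT and 106, 95.2 and 96.9 in cKO (log2 fold change 0.49 ± 0.10 SE; limma, adjusted p = 0.0283). It lost its call without 4 of the 6 libraries (adjusted p up to 0.0957). Its partner Col5a2 had a log2 fold change of 0.11 ± 0.15 (adjusted p = 0.636), with 213, 173 and 185 RPKM in cKO.

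Type I collagen itself did not pass in the metaphysis. Col1a1 measured 10382, 9310 and 10462 RPKM in cKO, all above the WT values given above (log2 fold change 0.45 ± 0.16 SE, 95% interval 0.08 to 0.81; limma, adjusted p = 0.107). Col1a2 measured 7389, 6975 and 7571 RPKM in cKO, also above all WT values (0.30 ± 0.15, 95% interval -0.05 to 0.66; adjusted p = 0.226). Col27a1, a fibrillar collagen of cartilage and its border with bone, had the largest fold change of its class. It measured 10.7, 10.8 and 8.37 RPKM in WT and 11.7, 19.5 and 19.5 in cKO (0.73 ± 0.22; adjusted p = 0.0685). Col3a1 measured 182, 250 and 145 RPKM in cKO beside 176, 278 and 148 in WT and had a log2 fold change of -0.05 ± 0.27 (adjusted p = 0.929).

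**Figure D2:**
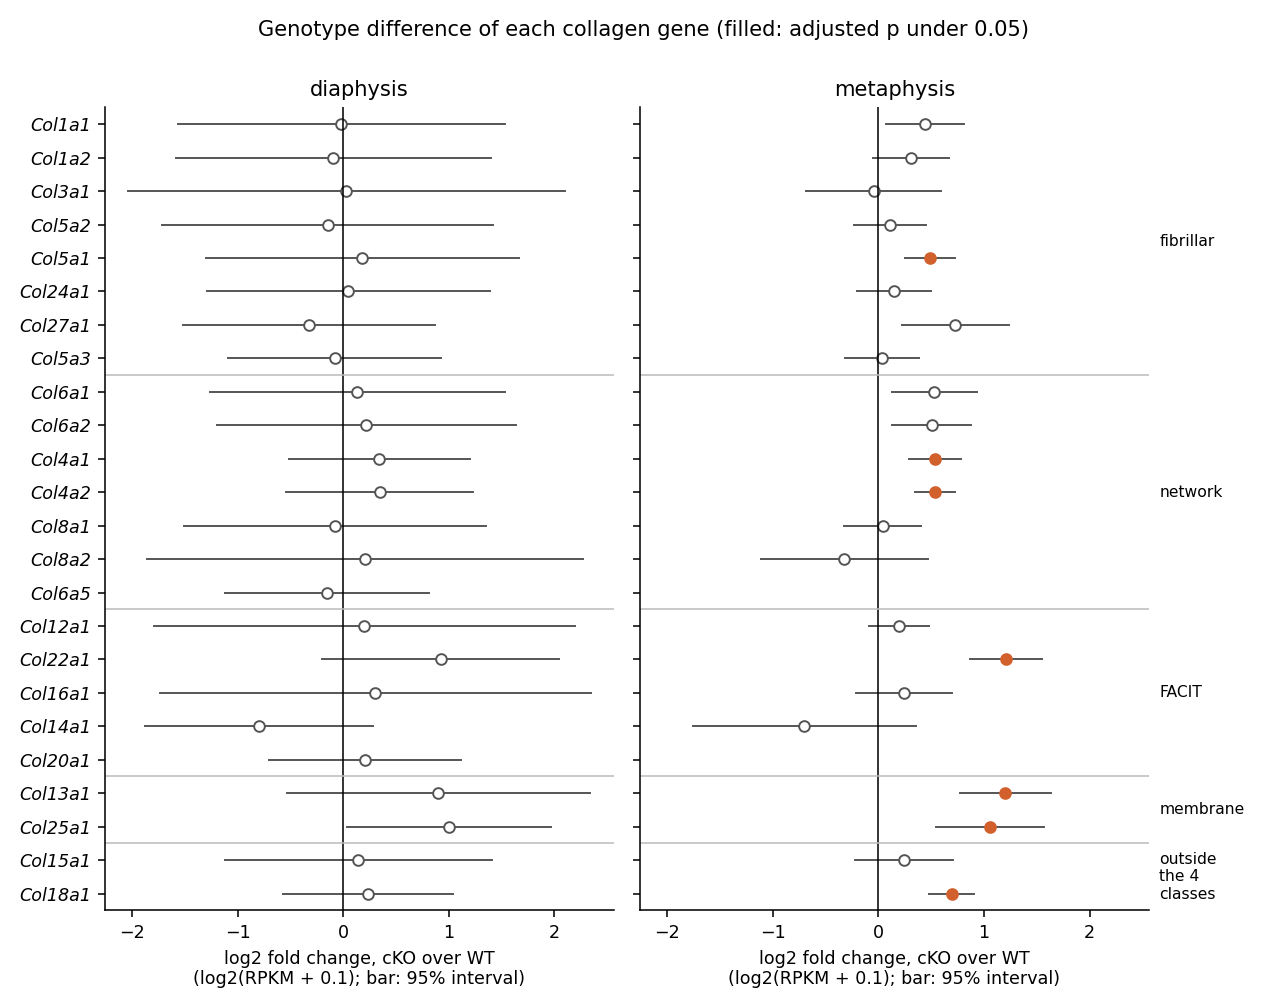
Log2 fold change of cKO over WT for each tested collagen (point) with its 95% interval (bar), by class, in the diaphysis and the metaphysis on 1 scale. The 7 filled points in the metaphysis passed an adjusted p of 0.05, and none in the diaphysis did, where the intervals of the 22 genes tested in both regions are all wider.

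In the diaphysis, 0 of 12540 genes passed (0% of all tested genes; 86 at an unadjusted p under 0.05), and so 0 of the 24 collagens tested there. Col25a1, the only collagen at an unadjusted p under 0.05, measured 0.490, 1.01 and 1.45 RPKM in WT and 1.41, 2.22 and 2.22 in cKO (log2 fold change 1.00 ± 0.41 SE; limma, adjusted p = 1.00). Col22a1 measured 10.96, 32.8 and 45.6 RPKM in WT and 39.1, 57.2 and 50.4 in cKO (0.92 ± 0.48; adjusted p = 1.00). Col13a1 measured 3.22, 15.8 and 20.05 RPKM in WT and 15.9, 22.1 and 19.4 in cKO (0.90 ± 0.62; adjusted p = 1.00). In all 3 the groups overlapped, and WT replicate 1 was the lowest of the 6 libraries. Of the 24 collagens, none had all cKO values beyond all WT values, beside 2.24% of all tested genes higher and 0.789% lower.

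That library weighed on nearly every collagen. WT replicate 1 held the lowest value of 22 of 24 collagens, beside 27.8% of all tested genes. WT replicate 3 held the highest value of 20 of 24, beside 18.0% of all tested genes. Over all tested genes, cKO replicate 1 held the lowest value more often (39.5%), but of 2 of 24 collagens. It was the library of lowest depth (18.45 M reads), with a globin share of 26.5%. Col1a1 measured 4998, 5972 and 5416 RPKM in diaphysis cKO, between the WT values of 1801 and 8279, and had a log2 fold change of -0.02 ± 0.66. Without WT replicate 1 it was -0.82 (limma, adjusted p = 0.868), and 4 of 24 collagens had a positive fold change in place of 16. Col18a1 (0.24 with all libraries, -0.18 without), Col4a1 (0.34 and -0.12), Col4a2 (0.34 and -0.13) and Col5a1 (0.18 and -0.65) changed sign, while Col25a1 (0.62), Col22a1 (0.32) and Col13a1 (0.09) remained positive. No collagen passed in the diaphysis with that library left out (0% of all genes), but 15 of 24 were lower in cKO at an unadjusted p under 0.05, beside 3.45% of all tested genes, where 0 of 24 were with all libraries (0.199%). The 4 of lowest p were Col8a2 (-0.99), Col16a1 (-0.88), Col3a1 (-1.14) and Col27a1 (-0.96), with adjusted p of 0.304, 0.304, 0.533 and 0.537 (limma). The fit rests on 2 WT libraries. The number of positive fold changes moved both ways with the library dropped. It was 21 of 24 when WT replicate 2 was dropped, 22 for WT replicate 3 and 21 for cKO replicate 1. For cKO replicates 2 and 3 it was 11 and 16. In these other fits 0 to 3 of 24 collagens had an unadjusted p under 0.05, either direction counted. The direction of the family in the diaphysis was thus not settled.

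Col1a2 (-0.09 ± 0.64), Col3a1 (0.03 ± 0.89) and Col14a1 (-0.80 ± 0.46) did not pass in the diaphysis (limma, adjusted p = 1.00 each). The 95% interval of Col3a1 ran from -2.04 to 2.10, so changes of up to about 4-fold either way lay within it. Col6a5 and the FACIT gene Col20a1 passed the filter in the diaphysis alone, at 1.88 ± 0.88 and 1.39 ± 0.66 RPKM in WT, and differed by -0.15 ± 0.41 and 0.20 ± 0.39.

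**Figure D3:**
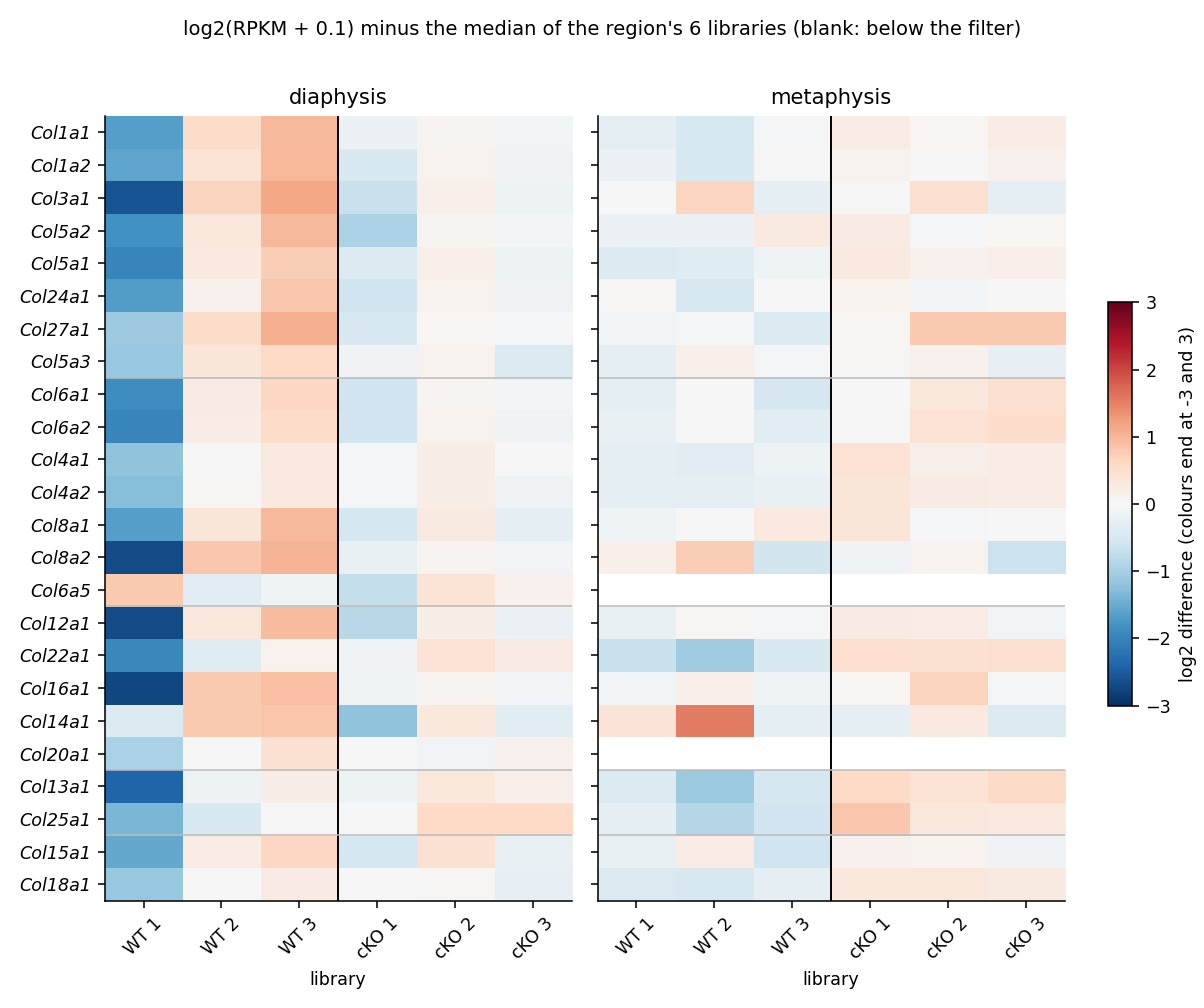
Log2(RPKM + 0.1) of each tested collagen in each library minus the median of the 6 libraries of its region (blue, lower; red, higher; blank, below the filter), with genes in rows by class and libraries in columns. Diaphysis WT 1 is blue for nearly all rows. In the metaphysis 10 genes lie below the median in all WT and above it in all cKO libraries. They are Col22a1, Col13a1, Col25a1, Col4a1, Col4a2, Col18a1, Col5a1, Col1a1, Col1a2 and Col27a1.

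A ratio within a library does not depend on how the library was scaled. Each collagen was therefore also set against Col1a1 of its own library. Col1a1 lies 167 kb from Dlx3 on chromosome 11, and whether this nearness bears on its level was not tested. Per 1000 RPKM of Col1a1, Col13a1 stood at 1.79, 1.91 and 1.79 in diaphysis WT and at 3.19, 3.70 and 3.58 in diaphysis cKO. In the metaphysis it stood at 2.23, 1.58 and 1.78 in WT and at 3.18, 3.10 and 3.10 in cKO. For Col13a1, diaphysis WT replicate 1, which stood apart in RPKM (1801 for Col1a1), was level with the other diaphysis WT libraries on this scale. The cKO ratios were apart from WT in both regions. In RPKM, however, Col13a1 was 15.8 and 20.05 in diaphysis WT replicates 2 and 3 and 15.9, 22.1 and 19.4 in cKO. The denominator Col1a1 was 8279 and 11230 RPKM in those WT libraries and 4998, 5972 and 5416 in cKO. A higher ratio there is thus not by itself a higher Col13a1 level. For other collagens diaphysis WT replicate 1 still stood apart per Col1a1: Col4a1 was 13.01 there against 6.69 and 6.001, Col18a1 was 1.83 against 0.881 and 0.777, and Col3a1 was 47.3 against 98.8 and 102.

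Col22a1 per 1000 RPKM of Col1a1 was 6.08, 3.97 and 4.06 in diaphysis WT and 7.83, 9.58 and 9.30 in cKO, and 5.86, 5.17 and 5.81 in metaphysis WT and 9.32, 10.2 and 9.10 in cKO. Col25a1 was 0.272, 0.122 and 0.129 in diaphysis WT and 0.282, 0.372 and 0.410 in cKO, and 0.236, 0.178 and 0.165 in metaphysis WT and 0.372, 0.293 and 0.254 in cKO. Diaphysis WT replicate 1 was the highest WT library of the region for both genes. Again the cKO values were above the WT values in each region, narrowly so for Col25a1. These 3 of 22 genes were higher without overlap in both regions per Col1a1, which 0.820% of the genes tested in both regions were. In RPKM itself 0 of 22 were, beside 0.868%.

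The rest of the family did not follow both regions on this scale. In the diaphysis Col5a1 was also higher per Col1a1 without overlap (4 of 24 in all, beside 1.38% of all tested genes) and Col27a1 was lower (1 of 24, beside 0.255%). In the metaphysis Col18a1 was the fourth of 4 higher (beside 3.28%), and Col1a2, Col5a2, Col8a1 and Col24a1 were lower, 4 of 22 beside 55.4% of all tested genes, on a scale whose denominator lay above WT in all 3 cKO libraries there. In a limma fit relative to the sum of Col1a1 and Col1a2, an alternative chosen after seeing the data, Col13a1 (0.82 ± 0.16), Col22a1 (0.83 ± 0.14) and Col25a1 (0.67 ± 0.23) were the collagens that passed in the metaphysis (adjusted p = 0.00992, 0.00917 and 0.0476). All were higher, whereas the share of all genes that passed, 35.8%, counts both directions. Col4a1, Col4a2, Col5a1 and Col18a1 did not pass in it. In the diaphysis 0 of 24 passed in that fit (0.0239% of all genes), with 0.95 ± 0.87 for Col13a1, 0.98 ± 0.92 for Col22a1 and 1.05 ± 0.74 for Col25a1.

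**Figure D4:**
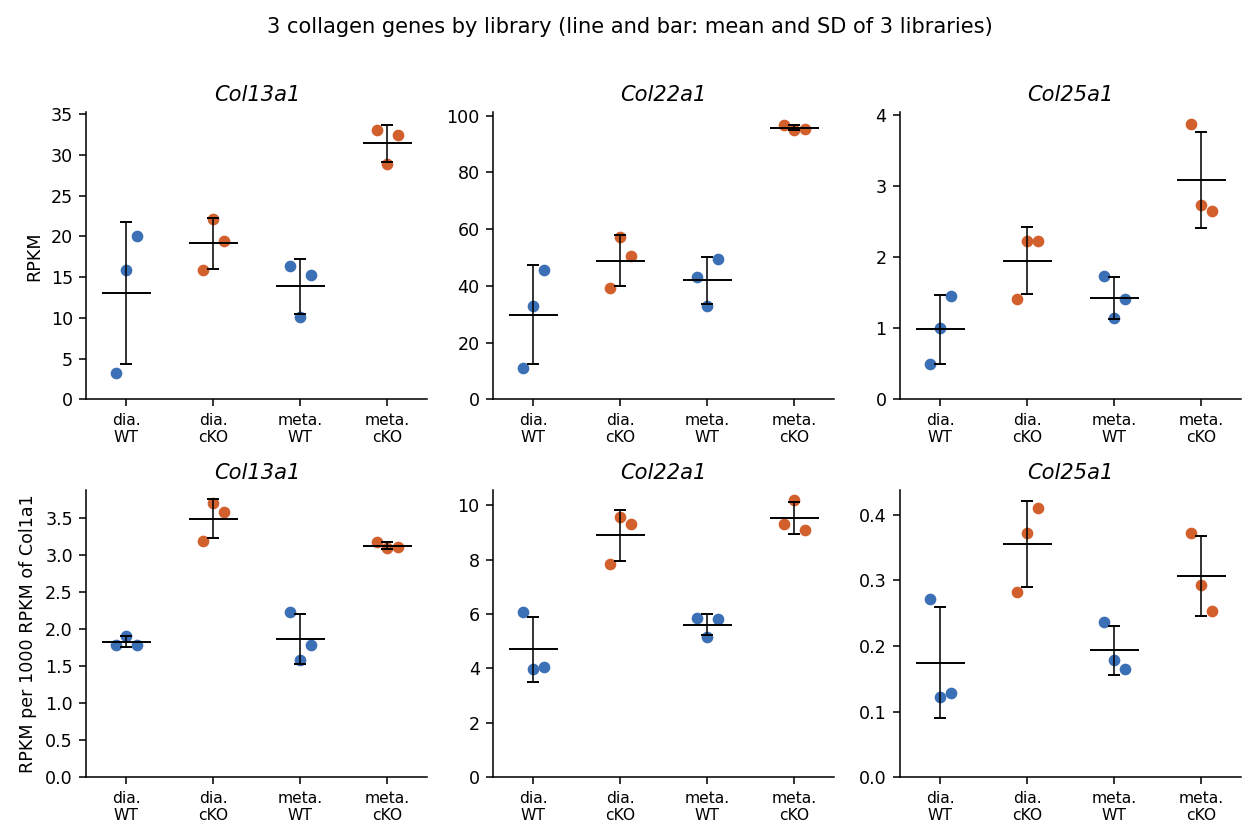
Col13a1, Col22a1 and Col25a1 in each library (points; line and bar, mean and SD of 3 libraries) as RPKM (top) and per 1000 RPKM of Col1a1 of the same library (bottom). In RPKM the diaphysis groups overlap, and per Col1a1 all cKO points are above all WT points in both regions.

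The make-up of the collagen RNA was described by each class's share of the summed RPKM of the 35 genes. The membrane class, of which Col13a1 made up 79.8% in diaphysis WT replicate 1 and 86.4% to 91.4% in the other libraries, took 0.0937% to 0.105% in diaphysis WT and 0.183% to 0.193% in diaphysis cKO. It took 0.0941% to 0.131% in metaphysis WT and 0.183% to 0.197% in metaphysis cKO. The groups did not overlap in either region. With type I at 88.2% to 94.6% of the sum, this share mostly repeats Col13a1 against type I and is not a trait of the whole class. Col23a1 and Col17a1, the membrane genes below the filter, had lower means in cKO. Col23a1 was 0.528 RPKM in diaphysis WT and 0.283 in cKO, and 0.370 and 0.288 in the metaphysis. Col17a1 was 0.110 and 0.0947 in the diaphysis and 0.0670 and 0.0659 in the metaphysis. The FACIT share was 0.778% to 1.08% in diaphysis WT and 1.15% to 1.36% in diaphysis cKO, and 0.676% to 0.844% and 0.816% to 1.03% in the metaphysis, where the groups overlapped. Network collagens took 2.07% to 2.76% in diaphysis WT and 2.64% to 2.87% in cKO, and 1.57% to 2.38% and 1.85% to 2.19% in the metaphysis, with overlap in both. No p is given for these sums.

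**Figure D5:**
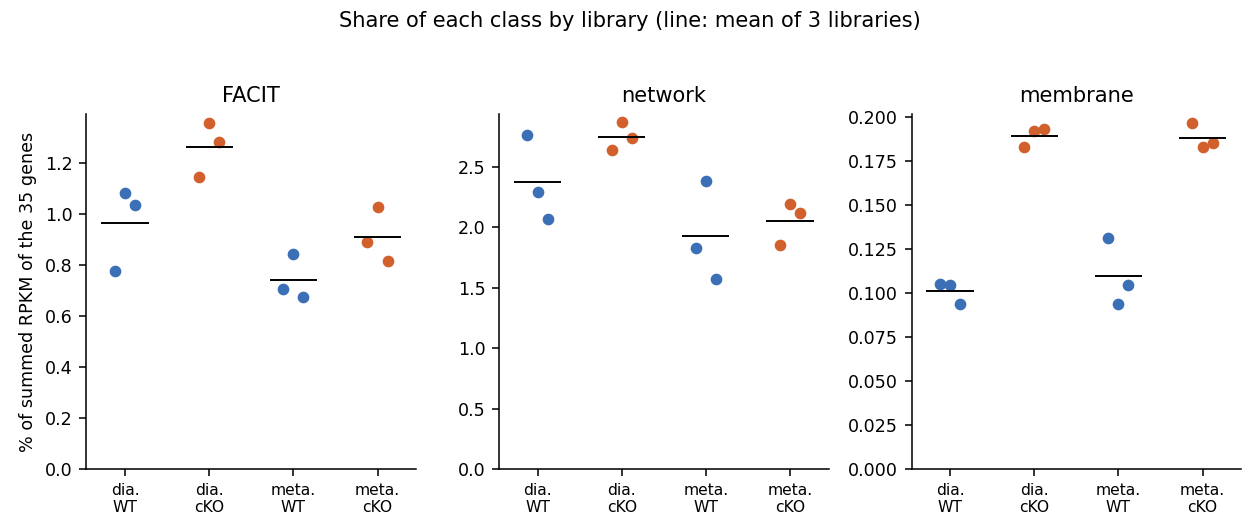
Share of the FACIT, network and membrane classes in the summed RPKM of the 35 collagens in each library (points; line, mean of 3 libraries; blue, WT; orange, cKO), with vertical axes from 0. The membrane share is 0.0937% to 0.131% in the 6 WT libraries and 0.183% to 0.197% in the 6 cKO libraries.

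The ratios of chains that assemble together or lie on the same fibrils were compared by an exact two-sided permutation test with labels permuted within each region (400 arrangements, smallest possible p = 0.005, 5 ratios). The ratio of Col1a1 to Col1a2, the chains of type I, was 1.21, 1.27 and 1.25 in metaphysis WT and 1.41, 1.33 and 1.38 in cKO, without overlap. In the diaphysis it was 1.06, 1.23 and 1.12 in WT and 1.36, 1.11 and 1.15 in cKO, with overlap. Over both regions the log2 difference was 0.11 (exact permutation p = 0.085, adjusted 0.288). Col4a1 to Col4a2 was the steadiest pair, between 1.40 and 1.58 in all 12 libraries (log2 difference -0.0034; exact permutation p = 0.92, adjusted 0.95), although Col4a1 itself ranged from 23.4 to 67.4 RPKM over the diaphysis libraries.

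Col6a1 to Col6a2 was also narrow, between 0.976 and 1.12 in all libraries, and was only described. Col3a1 to Col1a1 was 0.0826 ± 0.0306 in diaphysis WT and 0.0815 ± 0.0153 in diaphysis cKO, and 0.0283 ± 0.0137 and 0.0194 ± 0.0067 in the metaphysis (SD, n = 3; log2 difference -0.22, exact permutation p = 0.5, adjusted 0.833). Col5a1 to Col1a1 differed by 0.12 (exact permutation p = 0.115, adjusted 0.288) and Col12a1 to Col1a1 by -0.02 (exact permutation p = 0.95, adjusted 0.95). No ratio differed between genotypes beyond this test's threshold.

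Whether the genotype difference itself differed between regions was tested over all 12 libraries. No gene of 12321 passed (0%; 495 at an unadjusted p under 0.05, 0 of them among the 22 collagens). The difference of the effects, metaphysis minus diaphysis, was 0.30 for Col13a1 (95% interval -1.30 to 1.90), 0.29 for Col22a1 (-0.95 to 1.53) and 0.05 for Col25a1 (-0.997 to 1.11). These intervals leave room for effects that are equal or unlike by more than 2-fold. Without diaphysis WT replicate 1, 4 of 22 collagens passed (2.01% of all genes): Col27a1 (1.69 in place of 1.06), Col1a1 (1.27 in place of 0.46), Col5a1 (1.14 in place of 0.31) and Col18a1 (0.87 in place of 0.46), each with a limma adjusted p of 0.0487. The call thus rests on which diaphysis WT libraries are counted.

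The genotype difference averaged over regions passed for 20 genes (0.162%; 0.130% higher and 0.0325% lower) and for 0 of 22 collagens (4 at an unadjusted p under 0.05). It was 1.03 ± 0.24 for Col25a1 (limma, adjusted p = 0.202), 1.07 ± 0.28 for Col22a1 (0.294) and 1.05 ± 0.36 for Col13a1 (0.449). Without diaphysis WT replicate 1, Col22a1 passed (0.76 ± 0.14; adjusted p = 0.0282), with 0.651% of all genes. Relative to type I collagen 0 of 22 passed for the average (0.0406% of all genes). With weights for each library, 10 of 22 collagens passed in the metaphysis (22.3% of all genes), 0 of 24 in the diaphysis (0.463%), 8 of 22 for the difference between regions (19.4%) and 6 of 22 for the average (14.4%).

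Genes that make, export and anchor collagen were taken as 6 lists. In the metaphysis 10 of 20 tested genes of collagen folding and hydroxylation rose and 0 fell (7.51% and 3.89% of all genes), among them Leprel4 (0.74 ± 0.12 SE on the log2 scale; limma, adjusted p = 0.0172), a subunit of the collagen modification complex, and Fkbp10 (0.73 ± 0.12; 0.0158), a procollagen chaperone mutated in brittle bone disease. Of the genes of procollagen export and its regulation 3 of 7 rose, led by Creb3l1 (1.15 ± 0.16; adjusted p = 0.0122), a transcription factor of the secretory stress response that is needed for type I collagen output in bone, and Creb3l2 (0.61 ± 0.15; 0.0418). Of propeptide processing 4 of 6 rose, led by the amino-propeptidase gene Adamts14 (0.81 ± 0.14) and the carboxy-propeptidase gene Bmp1 (0.81 ± 0.14; adjusted p = 0.0171 for each). Among crosslinking genes 6 of 10 rose, led by the lysyl oxidase genes Loxl4 (1.298 ± 0.26; 0.0265) and Loxl1 (0.88 ± 0.11; 0.0115).

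Of 10 collagen receptor and uptake genes 3 rose, led by the integrin chains Itga11 (1.08 ± 0.15; limma, adjusted p = 0.0121) and Itga10 (0.87 ± 0.11; 0.0108), which bind fibrillar and cartilage collagens. Of 13 fibril-binding protein genes 1 rose (Fbln1, 0.86 ± 0.16, adjusted p = 0.0225) and 1 fell (Thbs1, -0.59 ± 0.08, adjusted p = 0.0117). Of all tested genes 7.51% rose and 3.89% fell. In the diaphysis 0 genes of any list passed. Fkbp10 stands in both the folding and the crosslinking list.

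Markers of cell types moved with genotype in the same metaphysis libraries as the collagens. Beside the counts below, 7.51% of all tested genes rose there and 3.89% fell. Of 11 osteoblast markers 9 rose (summed RPKM 3713 to 4431 in WT and 5675 to 8411 in cKO), and of 12 chondrocyte markers 9 rose (995 to 1223 and 1739 to 2627). Of 11 endothelial markers 7 rose (171 to 179 and 246 to 257), of 7 tested smooth muscle and pericyte markers 3 rose (74.3 to 89.1 and 102 to 113), and of 6 osteoclast markers 5 rose (2119 to 2688 and 3991 to 4547). Of 10 erythroid markers 4 fell (46049 to 52306 and 34460 to 44414), and of 7 B lymphoid markers 5 fell (385 to 475 and 247 to 288). Of the remaining lists, 2 of 12 tendon, periosteum and fibroblast markers rose, 1 of 12 skeletal muscle markers fell, and 0 of 5 adipocyte, 0 of 6 peripheral nerve and 0 of 9 neutrophil markers passed. Of 5 tested osteocyte markers Pdpn fell (log2 fold change -1.08 ± 0.19, limma adjusted p = 0.0183). Dmp1, Mepe, Phex and Sost did not pass, with log2 fold changes of 0.45 to 0.78, all towards higher in cKO. The summed RPKM of the osteocyte list did not overlap between genotypes, at 230 to 357 in metaphysis WT and 395 to 574 in cKO, and at 130 to 488 in diaphysis WT and 507 to 564 in cKO. Among single tested genes, 18.7% in the metaphysis and 2.24% in the diaphysis were likewise higher in cKO without overlap.

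Skin markers summed to 0.638 to 4.73 RPKM in all libraries, with Krt14 listed at 0 in metaphysis WT. Globin genes took 19.0% to 22.1% of the summed RPKM in metaphysis WT and 13.5% to 17.2% in cKO. The calls of the 7 collagens in the metaphysis all held with globin genes removed and the libraries rescaled. The part of the cell types in the rise of the collagens was not tested.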

How the data were processed

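RNA from diaphysis and metaphysis was sequenced in 12 libraries. Per the labels' protocols, it was taken up in Trizol and prepared with a TruSeq RNA kit, whose reads carry no strand. The authors deposited 1 table per region with RPKM values per RefSeq transcript and library. Tools listed in the submitters' processing notes, without roles, are Bowtie 0.12.7.0, TopHat 1.3.2, Partek 6.6 and CASAVA 1.8.2, with mm9 as the build. The annotation version is not given in the sources used here.

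Transcripts were summed per symbol. Genes with at least 1 RPKM in 3 libraries of the region (of each region in fits of all 12) were tested with limma 3.58.1 (R 4.3.3, mean-variance trend) on log2(RPKM + 0.1), two-sided, Benjamini-Hochberg over all genes tested, threshold 0.05. The filter passed 22 collagens in both regions and 2 more in the diaphysis. Errors beside log2 fold changes are SE and beside RPKM are SD. Depth was read from the steps of low RPKM values, of which 70.4% to 74.4% lay within 0.1 of a whole read, where chance gives 20%. Gene positions are from GENCODE on mm9. RPKM depend on all other transcripts of a library, so a change in a few abundant genes moves every value.

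Named with values were the 6 collagens of highest mean RPKM, those past the threshold in any fit, those without overlap in both regions with the same sign, the largest change of each class and, in the pathway lists, up to 2 per direction. Members and lists were chosen with earlier results of these data known. Alternatives were pseudocounts of 1 and 0.01 RPKM, no filter or a minimum of 5 RPKM, a median shift per library, globin genes removed, the highest transcript per gene, array weights, the spread from all 12 libraries, each library left out, and values relative to type I collagen.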

Additional observations from a re-analysis of the deposited data

How the results depend on the processing

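No paired analysis was possible because the replicate numbers only follow the order of the records and the titles carry 12 different numbers. In the metaphysis the 7 collagens that passed kept a positive fold change under every alternative in which they were tested. All their cKO values lay above all their WT values. Their sign was thus fixed in advance unless libraries were rescaled or 1 transcript was taken per gene. Without the filter Col25a1 and Col5a1 did not pass, and with the highest transcript Col25a1 did not. Without 1 library, 1 to 7 collagens passed (105 to 1418 genes in all); with the spread from all 12 libraries 0 (8 genes), and relative to type I collagen 3 (4529 genes). Array weights gave 2813 genes there, 58 in the diaphysis, 2394 and 8 collagens for the difference between regions, and 1779 and 6 collagens for the average; the weights did not converge fully. Without the filter 789 genes passed in the metaphysis, 2 for the difference between regions and 36 for the average, which was 31 with a pseudocount of 1 RPKM, 10 with a minimum of 5 RPKM and 5 relative to type I collagen (diaphysis 3). Without 1 library the difference between regions passed for 0 to 247 genes and 0 to 4 collagens, and the average for 0 to 80 and 0 to 1.

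Relative to type I collagen, Col12a1 (-0.19), Col1a2 (-0.079) and Col5a2 (-0.27) changed sign in the metaphysis, Col1a1 (0.035) in the diaphysis, and Col13a1 (-0.14), Col22a1 (-0.15), Col25a1 (-0.38) and Col5a1 (-0.13) in the difference between regions, where Col25a1 was -0.068 with the highest transcript and -0.043 with array weights. Col1a1 and Col1a2 are themselves that reference, so their signs relative to it are set by their ratio to each other. In the diaphysis Col1a1 was 0.0021 without globin genes, and array weights gave -0.12 for Col18a1, -0.75 for Col3a1, -0.015 for Col4a2 and -0.36 for Col5a1. Leaving out 1 library moved diaphysis fold changes from -0.18 to 0.51 for Col18a1, -0.82 to 0.50 for Col1a1, -0.85 to 0.43 for Col1a2, -1.14 to 0.73 for Col3a1, -0.12 to 0.64 for Col4a1, -0.13 to 0.65 for Col4a2 and -0.65 to 0.70 for Col5a1. It moved differences between regions from -0.19 to 1.11 for Col13a1, -0.051 to 1.27 for Col1a1, -0.13 to 0.89 for Col22a1, -0.26 to 0.44 for Col25a1 and -0.22 to 1.14 for Col5a1, Col3a1 in the metaphysis from -0.25 to 0.22, and the log2 ratio differences of Col12a1 to Col1a1 from -0.17 to 0.092 and of Col4a1 to Col4a2 from -0.024 to 0.019. The cause of the other moves was not tested. Class shares within a library do not depend on its scaling. Leaving out 1 of 3 libraries cannot move a group mean by 1 SD. With the highest transcript per gene the shares moved by less than 1 SD. With 3 libraries a group and this depth, the main fits left out genes below the filter of 1 RPKM in 3 libraries. The fits without the filter included them.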
